A study of Mus musculus with 6 samples.

Results

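Neurons build axons and dendrites on microtubules, and the genes described here are 10 of those they use for it, read in the epidermis of mouse embryos. They comprise the beta tubulins Tubb3, Tubb2a, Tubb2b, Tubb5 and Tubb6, the alpha tubulin Tuba1a, the microtubule regulators Stmn1, Dcx and Dpysl3, and the secreted growth factor Mdk. The genes were chosen by name as tubulin, stathmin and neurite genes, and Tubb3 and Dcx also because SOX4 and SOX11 are reported to act on them in neurons. Probes were found through the symbol of each probe's transcript accession, which gave 16 of the 28331 probes with a symbol and 10 of the 21368 named genes on the array.

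The arrays compared epidermis of knockout embryos at E16 with that of wild-type littermates. Sox4 cKO embryos lacked Sox4, Sox11 cKO embryos lacked Sox11, and dcKO embryos lacked both, each through Krt14-Cre, which acts in basal keratinocytes and their descendants, on floxed alleles. Each genotype had 2 arrays, both of them 2-colour arrays carrying knockout and littermate RNA together, so the series held 6 arrays and 12 RNA samples. The knockout RNA was in Cy5 in replicate 1 and in Cy3 in replicate 2. The labels give the strain 129SvEx:C57BL/6 for all samples, and the methods add that the Krt14-Cre line was FVB/N and that the floxed parents also carried a Sox12 null allele. The labels give neither the Sox12 genotype of the embryos, nor the Cre and floxed alleles of the littermates, nor whether embryos were pooled. Epidermis was separated from dermis with dispase, so other cells of the skin can be present, and in RNA of a whole tissue fewer cells of a type and less RNA per cell cannot be told apart.

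Microtubules are polymers of paired alpha and beta tubulin, and vertebrates have several genes for each. Tubb3 is the classical neuronal beta tubulin and Tuba1a the main alpha tubulin of developing neurons, while Tubb5 is widely made and abundant in proliferating cells. Stathmin, the product of Stmn1, binds free tubulin and promotes disassembly, doublecortin stabilises microtubules in migrating neurons, and Dpysl3 is a collapsin response mediator that links guidance signals to the cytoskeleton. Keratinocytes depend on microtubules for division and for their reorganisation to the cell cortex during differentiation.

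The promoters of 3 of the genes are shown because they stand for the 3 kinds of pattern below: Tubb2a was higher in dcKO, Tubb5 was lower, and Tubb3, the neuronal target, showed neither. RefSeq promoter windows on GRCm38.p6 were given for 5 of the 10 genes (Tubb3, Tubb2a, Tubb5, Tuba1a and Dcx), and the 250 bases before the start of the gene are printed 5′ to 3′ on the strand of the gene. Capitals mark the HMG-box core letters that SOX proteins can bind, ACAAAG (opposite strand CTTTGT) and ACAATG (opposite strand CATTGT), and the TATA box TATAAA (opposite strand TTTATA), which were searched on both strands and do not overlap here.
Tubb2a, chr13:34078009-34078258, minus strand: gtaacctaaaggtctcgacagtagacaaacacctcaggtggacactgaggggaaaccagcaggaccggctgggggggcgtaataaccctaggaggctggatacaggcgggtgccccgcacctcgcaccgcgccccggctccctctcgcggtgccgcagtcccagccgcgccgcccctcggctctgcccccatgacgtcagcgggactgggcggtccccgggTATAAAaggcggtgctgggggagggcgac
Tubb5, chr17:35838302-35838551, minus strand: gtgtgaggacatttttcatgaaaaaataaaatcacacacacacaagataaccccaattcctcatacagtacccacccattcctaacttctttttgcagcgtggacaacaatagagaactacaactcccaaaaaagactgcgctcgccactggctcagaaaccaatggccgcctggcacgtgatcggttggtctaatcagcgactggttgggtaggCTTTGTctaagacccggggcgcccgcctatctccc
Tubb3, chr8:123411303-123411552, plus strand: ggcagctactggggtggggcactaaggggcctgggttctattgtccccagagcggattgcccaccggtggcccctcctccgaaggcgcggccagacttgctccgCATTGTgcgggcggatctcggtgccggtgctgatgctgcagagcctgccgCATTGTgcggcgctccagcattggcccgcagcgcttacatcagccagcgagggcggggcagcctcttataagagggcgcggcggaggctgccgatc
Tubb3 held ACAATG on the opposite strand at 2 places, starting 146 and 96 bases before the gene, a motif found in 10.7% of the 32851 RefSeq windows of this length. Tubb5 held ACAAAG on the opposite strand, starting 35 bases before the gene, and 16.5% of windows hold it. Tubb2a held TATAAA starting 29 bases before the gene, as 12.4% of windows do, and neither HMG-box core was in its window or in that of Tuba1a. These matches describe the letters of the windows only, and no binding was measured here. The paper reports that tagged SOX11 and SOX4, induced in cultured keratinocytes lacking both genes, bound a known site in Tubb3 (chromatin immunoprecipitation with qPCR). Whether that site lies in the window printed here was not checked.

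Of the 10 genes, 9 were well above background in all 6 wild-type channels, and Dcx was not above it in any of the 12 channels with any of its 3 probes. Feature Extraction calls a spot well above background when its signal clears the local background by a set margin. The Dcx signals were 4.63 to 5.17 (log2) in wild type and 4.70 to 4.99 in the knockouts with the brightest probe, so no ratio is given for it. Dcx is the most neuron-restricted of the genes. Of 14 neuron markers, 5 were well above background in all wild-type channels (Elavl4, Ina, Ncam1, Snap25 and Syp), and the neurofilament genes Nefl and Nefm, the neuronal nuclear protein Rbfox3 and the sensory neuron factor Isl1 were not above it in any channel. The median log2 ratio of the neuron markers was -0.01 in dcKO, beside -0.05 for Sox4 cKO and -0.04 for Sox11 cKO, and none of them passed the test. All 10 epidermis markers (Krt5, Krt14 and Krt10 among them) were above background in every wild-type channel.

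**Figure D1:**
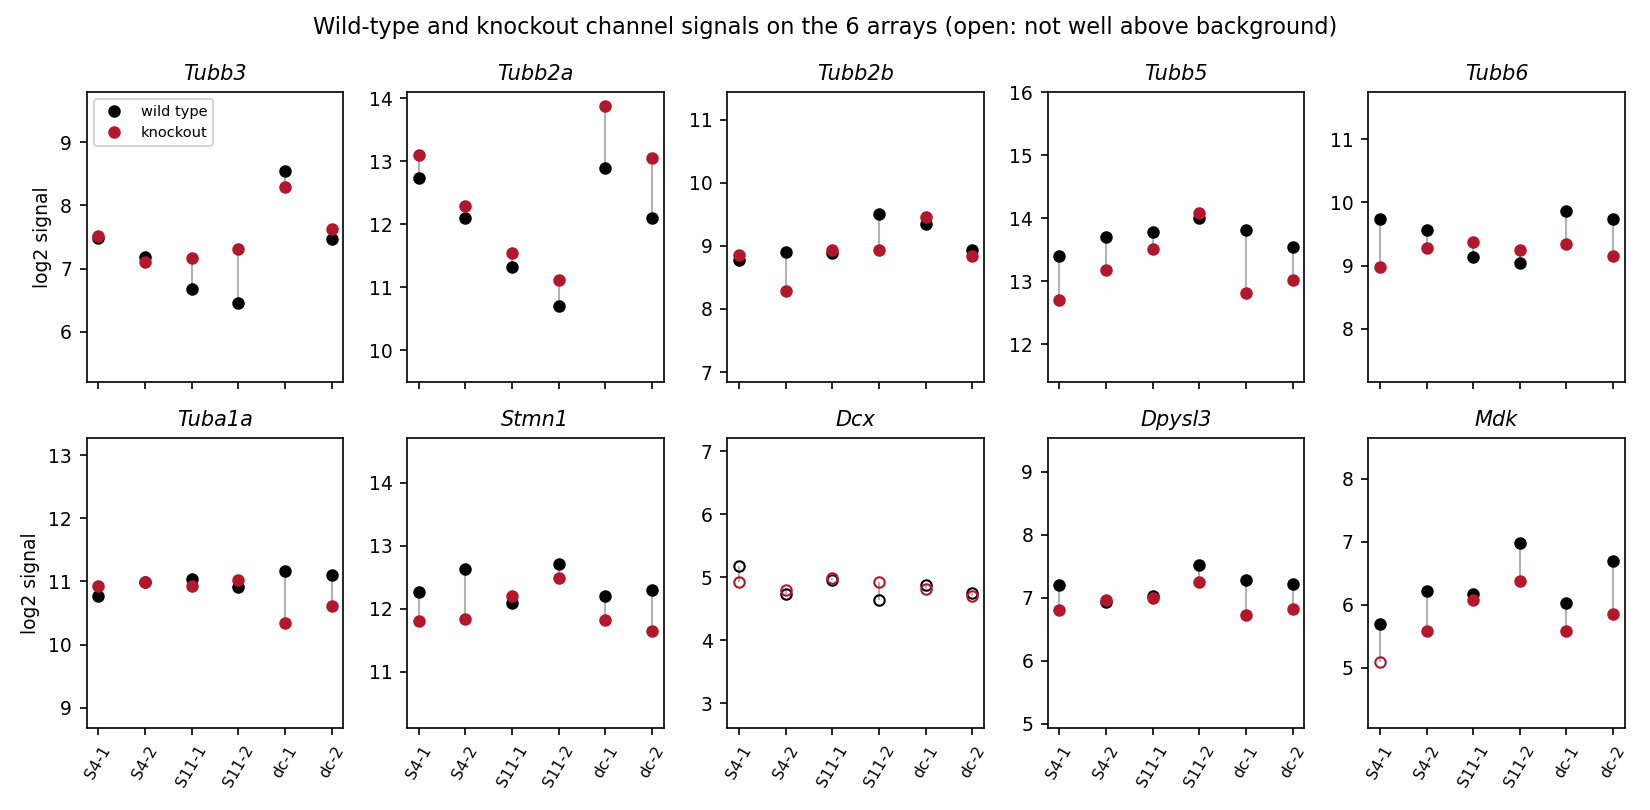
Normalised log2 signal of the wild-type (black) and knockout (red) channel on each array for the 10 genes (S4, Sox4 cKO; S11, Sox11 cKO; dc, dcKO; 1 and 2, replicate). Each panel spans the same number of log2 units, open circles were not well above background, and a grey line joins the 2 channels of an array. Tubb2a lay above its littermate on all 6 arrays, most in dcKO, and Dcx was open throughout.

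The genotypes were checked with the targeted genes. The dimmer of the 2 Sox4 probes was above background in all 6 wild-type channels and in neither knockout channel of Sox4 cKO or dcKO, which put Sox4 at least 3.05-fold lower in Sox4 cKO. The brighter Sox4 probe gave log2 ratios of -0.14 and -0.71 in Sox4 cKO, 0.05 and 0.18 in Sox11 cKO, and -0.95 and -0.69 in dcKO, and whether it lies in the deleted part was not checked. Both Sox11 probes were near or below background in wild type, so the loss of Sox11 could not be checked on these arrays. The paper reports that RT-qPCR on the epidermal RNA had verified the deletions before the arrays were run. Between 38.9% and 43.6% of spots were well above background on each channel, no spot was saturated and all arrays lay on 1 slide, read in 1 scan.

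In the tests, a gene passed when its adjusted p (limma, Benjamini-Hochberg over all 55681 probes) was under 0.05, and was called when its log2 fold change was also over 1.5 in size. In dcKO, 2 of the 10 genes passed, Tubb2a being higher and Tubb5 lower. None of the 10 passed in Sox4 cKO or in Sox11 cKO, and none was called in any genotype. Over all probes, 0.83% passed in dcKO, 0.207% were called in dcKO, 0.00539% passed in Sox4 cKO and 0% passed in Sox11 cKO. Among the 10751 named genes above background in every wild-type channel, 2.35% passed in dcKO, against 2 of the 9 genes measured here. Before adjustment, p was under 0.05 for 4 of the 10 genes in Sox4 cKO, for 3 in Sox11 cKO and for 7 in dcKO, beside 5.74%, 6.58% and 16.7% of the named genes above background. The median log2 ratio of the 9 measured genes was -0.52 in dcKO, beside -0.27 for Sox4 cKO and -0.06 for Sox11 cKO. Over all named genes above background it was -0.02, 0.0029 and 0.00089 in that order. All but 2 of the 9 lay below 0 in dcKO and in Sox4 cKO, against 53.4% and 49% of the named genes above background.

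**Figure D2:**
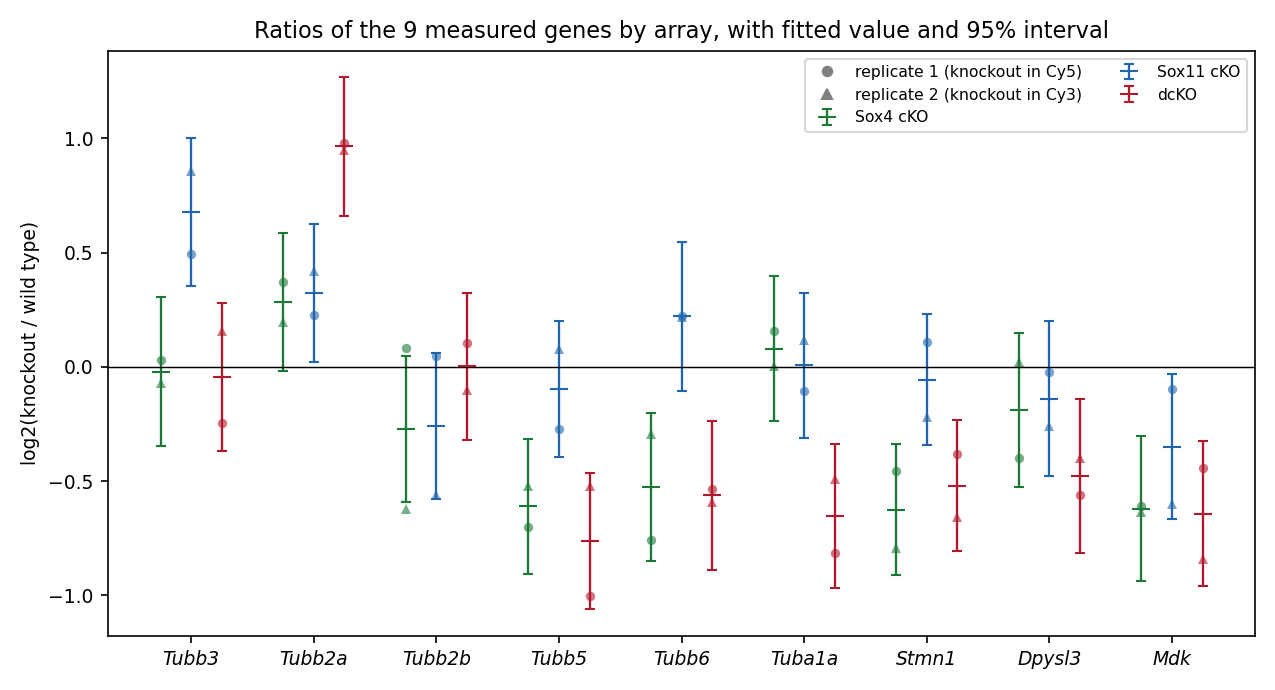
Log2(knockout/wild type) of the 9 measured genes on each array (circle, replicate 1; triangle, replicate 2) with the fitted value (horizontal mark) and its 95% interval from limma (bar). In dcKO the 2 arrays of Tubb2a lay at 0.98 and 0.95, and those of Tubb5 at -1.004 and -0.52.

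Tubb2a, a beta tubulin that neurons make in quantity, was the only listed gene to pass as higher in dcKO. Its wild-type log2 signal was 12.73 and 12.10 among the Sox4 cKO littermates, 11.32 and 10.70 among the Sox11 cKO littermates, and 12.90 and 12.11 among the dcKO littermates. The knockout signal on the same arrays was 13.10 and 12.30, then 11.55 and 11.12, then 13.88 and 13.06. Each knockout lay above its own littermate, while the wild-type samples differed by more, with a 4.61-fold range over the 6 wild-type samples and the lowest values among the Sox11 cKO littermates. The log2 ratios were 0.37 and 0.20 in Sox4 cKO, 0.23 and 0.42 in Sox11 cKO, and 0.98 and 0.95 in dcKO. In dcKO Tubb2a was 1.95-fold of wild type (95% interval 1.58 to 2.41), a log2 change of 0.96 ± 0.13 (SE, n = 2 arrays, limma adjusted p = 0.0145). The fitted values in the other genotypes were 0.29 in Sox4 cKO (adjusted p = 0.813) and 0.32 in Sox11 cKO (adjusted p = 0.706), and neither passed. Without dcKO replicate 1 the value was 0.94 and without dcKO replicate 2 it was 0.99, and with 1 dcKO array left neither passed in limma (adjusted p = 0.218 and 0.148).

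Genes with the most similar set of 6 ratios were looked up for Tubb2a among 11157 named genes above background on all arrays, by the root mean square difference in log2 ratio. The nearest were Sdr9c7 (0.10), an epidermal enzyme of barrier lipid synthesis, then the pseudogene Tubb2a-ps2 (0.12) and Nfatc2 (0.13), a calcium-responsive transcription factor. The dcKO log2 value was 0.95 for Sdr9c7 and 0.93 for Tubb2a-ps2. A Tubb2a pseudogene can share sequence with its parent, so part of the signal of either probe may come from the other transcript, which was not tested because the probe sequences are not used here.

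Tubb5, a widely made beta tubulin abundant in proliferating cells, was the only listed gene to pass as lower in dcKO. Tubb6, Tuba1a, Stmn1, Dpysl3 and Mdk also lay below 0 on both dcKO arrays but did not pass. Its wild-type log2 signal was 13.41 and 13.70 among the Sox4 cKO littermates, 13.78 and 14.00 among the Sox11 cKO littermates, and 13.82 and 13.54 among the dcKO littermates. The knockout signal was 12.71 and 13.18, then 13.51 and 14.07, then 12.81 and 13.02. All 4 knockouts that lacked Sox4 lay below the lowest of the 6 wild-type samples, while of the Sox11 cKO samples replicate 1 lay within the wild-type range and replicate 2 just above its top of 14.00. The log2 ratios were -0.70 and -0.52 in Sox4 cKO, -0.27 and 0.08 in Sox11 cKO, and -1.004 and -0.52 in dcKO. In dcKO the level fell by 41.1%, a log2 change of -0.76 ± 0.13 (SE, n = 2 arrays, limma adjusted p = 0.0394). The fitted value was -0.61 in Sox4 cKO, close in size to that of dcKO, yet it did not pass (adjusted p = 0.713), and in Sox11 cKO it was -0.10 (adjusted p = 0.921). The dcKO call was near the threshold: the adjusted p rose to 0.05 without either Sox4 cKO array, to 0.0565 without either Sox11 cKO array, to 0.153 without the replicate block (the dye term of the model), and to 0.558 and 0.224 without dcKO replicate 1 and 2. Those last fits put the log2 change at -0.65 and -0.87.

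The genes nearest to Tubb5 by the same measure were Tns1 (0.09), a focal adhesion protein, Tmem98 (0.14) and Mfge8 (0.14), a secreted phosphatidylserine-binding protein. Set against each other on the same arrays, a comparison chosen after the values were seen, Tubb2a minus Tubb5 gave log2 differences of 1.07 and 0.72 in Sox4 cKO, 0.50 and 0.34 in Sox11 cKO, and 1.99 and 1.47 in dcKO. The sign was the same on all 6 arrays and the dcKO arrays held the highest values. Both genes were picked because they passed in opposite directions in dcKO. The high dcKO differences follow from that choice and are no separate result.

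Tubb3, the neuronal beta tubulin, gave ratios of 0.03 and -0.07 in Sox4 cKO, 0.49 and 0.86 in Sox11 cKO, and -0.25 and 0.16 in dcKO. Its wild-type signal was 7.49 and 7.18, then 6.67 and 6.46, then 8.54 and 7.47, a 4.25-fold range with the lowest values again among the Sox11 cKO littermates. The knockout signals in Sox11 cKO, 7.17 and 7.32, lay above their own littermates, replicate 2 inside the range of the other 4 wild-type samples and replicate 1 just below it. The fitted Sox11 cKO value was 0.68 (95% interval 0.35 to 1.00) with an unadjusted limma p of 0.00118, which did not pass over all probes (adjusted p = 0.650). In dcKO the value was -0.04 (95% interval -0.37 to 0.28, adjusted p = 0.957) and in Sox4 cKO it was -0.02 (95% interval -0.35 to 0.30, adjusted p = 0.992), and the sign of both changed with the processing. Among the other known direct targets of SOX4 and SOX11 that the paper names was Tead2, a Hippo pathway transcription factor. Tead2 gave -0.89 and -0.94 in Sox4 cKO, 0.03 and -0.50 in Sox11 cKO, and -0.84 and -0.90 in dcKO. It passed in dcKO (-0.87, limma adjusted p = 0.0327), while its fitted value of -0.92 in Sox4 cKO did not pass. The homeobox gene Prox1 was below background in all channels, as was Dcx.

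Tubb2b, the close relative of Tubb2a, did not pass in any genotype. Its brighter probe gave 0.08 and -0.62 in Sox4 cKO, 0.05 and -0.56 in Sox11 cKO, and 0.10 and -0.10 in dcKO, with the replicates of each genotype on opposite sides of 0. The fitted dcKO value was 0.0017 (95% interval -0.32 to 0.32, adjusted p = 0.999). The dimmer probe gave 0.27 and 0.26 in dcKO, a fitted 0.27 that did not pass either (adjusted p = 0.554).

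Tubb6, a beta tubulin made in many tissues, gave -0.76 and -0.30 in Sox4 cKO, 0.22 and 0.22 in Sox11 cKO, and -0.53 and -0.59 in dcKO. Both genotypes that lacked Sox4 lay below 0 and Sox11 cKO lay above it on every array, as for no other of the genes. The fitted values of -0.53, 0.22 and -0.56 did not pass (limma adjusted p = 0.787, 0.801 and 0.179).

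Tuba1a, the main alpha tubulin of developing neurons, stayed within 0.16 of 0 on all 4 arrays that lacked only 1 factor (0.16 and 0.00 in Sox4 cKO, -0.10 and 0.12 in Sox11 cKO). In dcKO its ratios were -0.82 and -0.49. The 6 wild-type signals lay between 10.78 and 11.16, the smallest wild-type range of the 9 genes at 1.31-fold, and the dcKO signals of 10.35 and 10.61 lay below all of them. The fitted dcKO value was -0.65 (95% interval -0.97 to -0.34) with an unadjusted limma p of 0.00128, which did not pass over all probes (adjusted p = 0.101).

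Stmn1, which encodes stathmin, gave -0.46 and -0.79 in Sox4 cKO, 0.11 and -0.22 in Sox11 cKO, and -0.38 and -0.66 in dcKO with its main probe. With this probe all 4 knockouts that lacked Sox4 were below the lowest wild-type signal of 12.09. They lay at 11.80 and 11.84 in Sox4 cKO and 11.82 and 11.65 in dcKO. The fitted values were -0.63 in Sox4 cKO (adjusted p = 0.616) and -0.52 in dcKO (adjusted p = 0.156), and neither passed. The second Stmn1 probe gave -0.24 and -0.04 in Sox4 cKO and -1.10 and -0.18 in dcKO, so the probes shared a direction and differed in size, with fitted values of -0.14 and -0.64 (adjusted p = 0.954 and 0.382). Its lowest wild-type signal was 11.02, and only Sox4 cKO replicate 1 (10.77) lay below it. Sox4 cKO replicate 2 (11.47) and the dcKO samples (11.62 and 12.11) lay above it, so the separation held for the main probe only.

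Dpysl3, the collapsin response mediator, gave -0.40 and 0.02 in Sox4 cKO, -0.02 and -0.26 in Sox11 cKO, and -0.56 and -0.40 in dcKO with the 1 of its 2 probes that was above background. The fitted dcKO value was -0.48 (95% interval -0.82 to -0.14) and did not pass (adjusted p = 0.308).

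Mdk, which encodes midkine, a heparin-binding growth factor of developing epithelia and brain, lay below its littermate on all 6 arrays with the brighter probe. The ratios were -0.61 and -0.63 in Sox4 cKO, -0.10 and -0.60 in Sox11 cKO, and -0.44 and -0.84 in dcKO. The fitted values of -0.62, -0.35 and -0.64 did not pass (limma adjusted p = 0.724, 0.706 and 0.107). Their size depended on the processing, from -1.33 on Feature Extraction's own ratios to -0.37 with a normexp offset of 50 in Sox4 cKO, and from -0.96 to -0.42 in dcKO under the same settings. Its signal was low, with wild-type values from 5.70 to 6.98, and 1 of the 2 Sox4 cKO channels was not well above background. The second Mdk probe gave -0.45 and -0.48, then 0.09 and -0.67, then -0.32 and -1.02 in the same order.

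The 3 genotypes were then compared with each other, to ask whether loss of both factors differed from loss of 1. None of the 10 genes passed in dcKO against Sox4 cKO, where 0.145% of all probes did, in dcKO against Sox11 cKO, where 0.16% did, or in dcKO against the sum of both single knockouts, where 0.0862% did. Before adjustment the limma p was under 0.05 for 2, 6 and 2 genes respectively, beside 5.94%, 8.06% and 4.2% of the named genes above background. Tubb2a was 0.68 higher in dcKO than in Sox4 cKO (log2, 95% interval 0.25 to 1.11, adjusted p = 0.567) and 0.64 higher than in Sox11 cKO (95% interval 0.21 to 1.07, adjusted p = 0.554), and it exceeded the sum of both by 0.36 with an interval of -0.17 to 0.88. Tuba1a differed from Sox4 cKO by -0.73, from Sox11 cKO by -0.66 and from the sum by -0.74, with all 3 intervals below 0 (adjusted p = 0.548, 0.560 and 0.761). Tubb5 differed from Sox11 cKO by -0.67 (95% interval -1.09 to -0.25) and from Sox4 cKO by -0.15 (95% interval -0.57 to 0.27). The same held for Tubb6, at -0.78 (95% interval -1.24 to -0.32) from Sox11 cKO and -0.04 (95% interval -0.50 to 0.42) from Sox4 cKO. Tubb3 was 0.72 lower in dcKO than in Sox11 cKO as fitted (-0.72, 95% interval -1.18 to -0.26, adjusted p = 0.506). Against the sum of both single knockouts Tubb3 gave -0.70 (95% interval -1.26 to -0.14, limma adjusted p = 0.763). For Stmn1 and Mdk the differences from Sox4 cKO were 0.11 and -0.02, with intervals that reached 0.51 and 0.43 upwards and -0.30 and -0.47 downwards. Sox4 cKO and Sox11 cKO, compared after the values were seen, did not differ past the threshold for any of the genes (limma adjusted p of 0.929 or more).

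**Figure D3:**
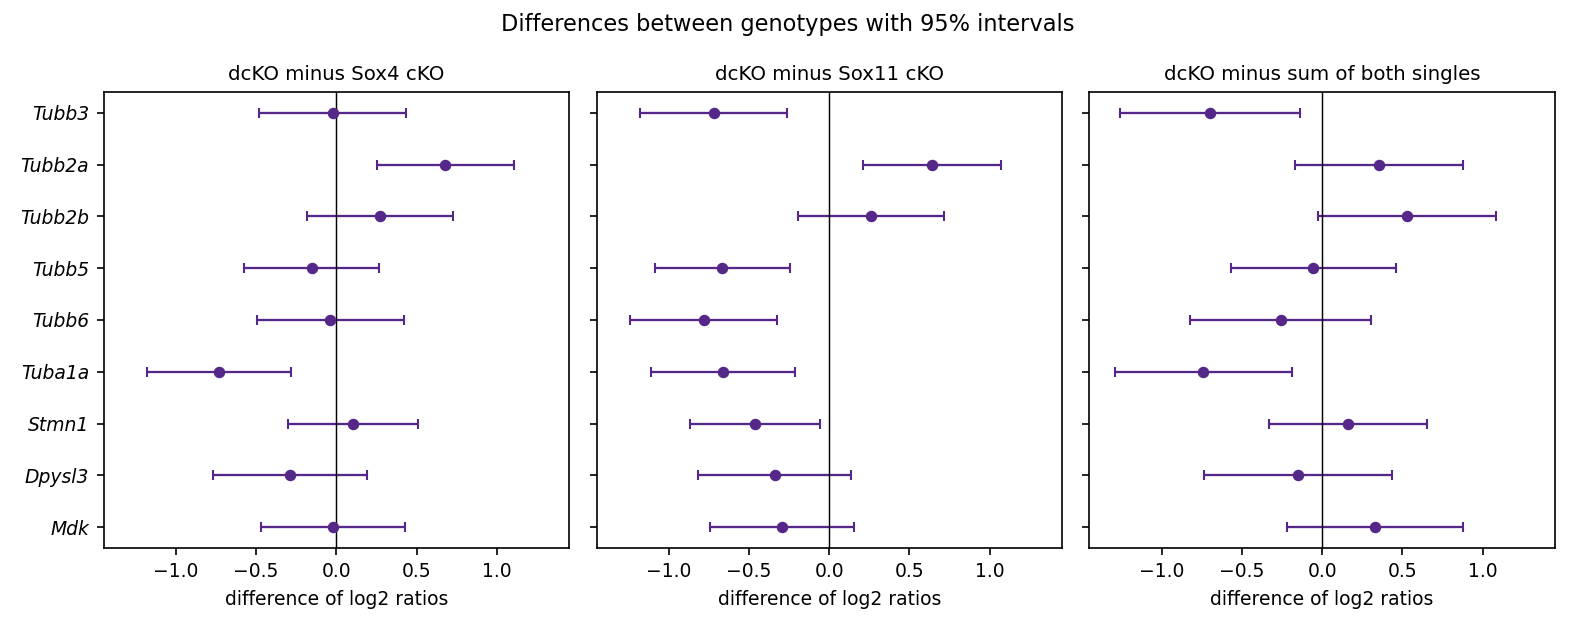
Differences between the log2 ratios of genotypes for the 9 measured genes (point, limma estimate; bar, 95% interval) in dcKO against Sox4 cKO, against Sox11 cKO and against the sum of both. The intervals of Tubb2a lay above 0 and those of Tuba1a below 0 against each single knockout. Those of Tubb3, Tubb5, Tubb6 and Stmn1 lay below 0 against Sox11 cKO. None of these differences passed after adjustment over all probes.

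Other genes of the microtubule system were read beside these. Among 14 other tubulins, 10 were above background in all wild-type channels and 1 passed in dcKO: Tuba8, an alpha tubulin, with ratios of 0.71 and 1.32 and a fitted 1.02 ± 0.14 (SE, n = 2 arrays, limma adjusted p = 0.0145). The list's median was -0.05 in dcKO, and none passed in Sox4 cKO or Sox11 cKO. Of 27 measured microtubule-associated and tubulin-folding genes, 2 passed in dcKO, in opposite directions. Map2, which bundles dendritic microtubules in neurons, rose (0.38 and 1.34, fitted 0.86, adjusted p = 0.0404) and Mapt, which encodes tau, fell (-0.91 and -0.86, fitted -0.89, adjusted p = 0.0213). The median of these 27 was -0.05 in dcKO, and the tubulin chaperones Tbca, Tbcb, Tbcc, Tbcd and Tbce lay between -0.24 and 0.03. None of the 11 other stathmin, doublecortin, CRMP and midkine genes passed in any genotype, and 3 of them were above background in all wild-type channels: Dpysl2 (-0.65 in dcKO, adjusted p = 0.166), Dpysl5 (-0.11) and the midkine homologue Ptn (-0.31).

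**Figure D4:**
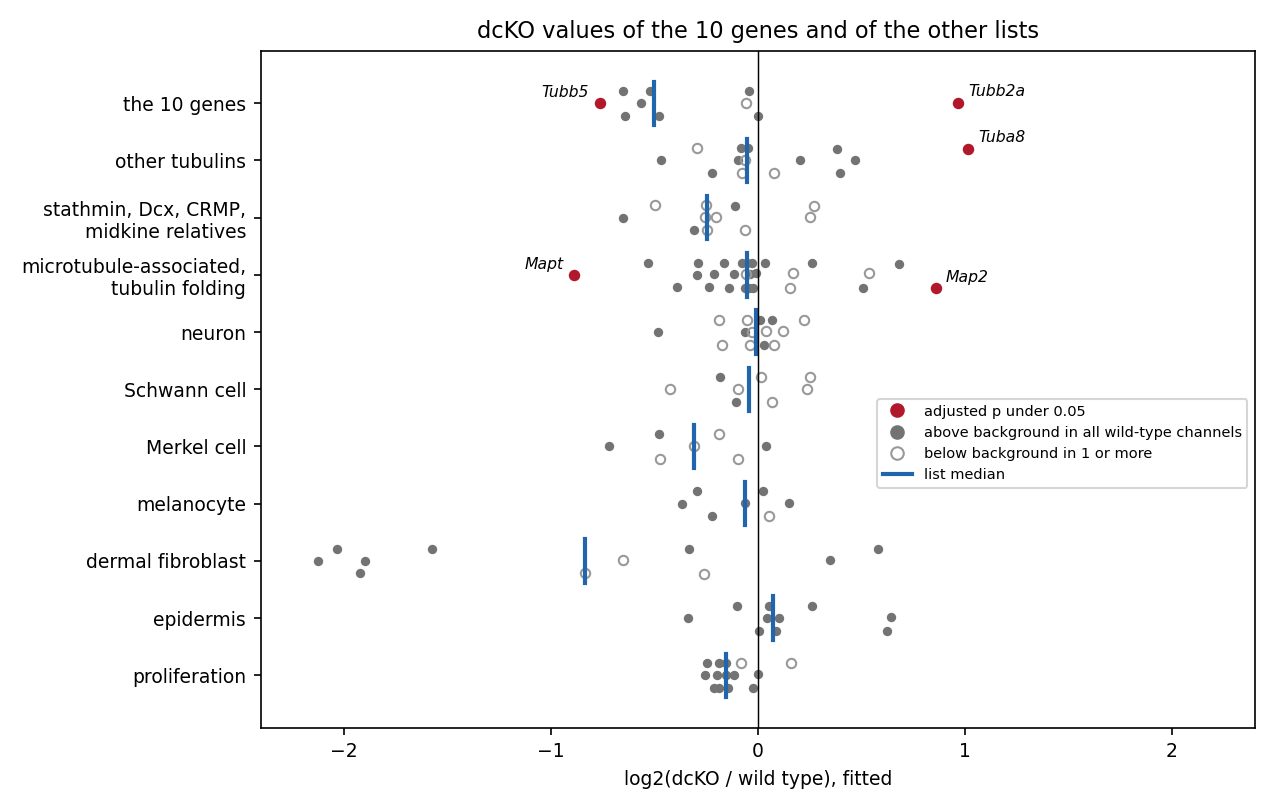
Fitted log2(dcKO/wild type) of the 10 genes and of other lists, 1 point per gene, with each list's median as a blue bar; red points passed the limma test and open points were below background in at least 1 wild-type channel. Tubb2a, Tuba8 and Map2 lay to the right, Tubb5 and Mapt to the left, and the lowest values of all belonged to dermal fibroblast genes.

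Genes of dermal fibroblasts also varied between the samples. Their median log2 ratio over 11 markers was -1.25 and 0.46 in Sox4 cKO, 0.65 and -0.26 in Sox11 cKO, and -0.81 and -0.89 in dcKO, and none of the 11 passed the test in any genotype. The markers did not all move together: the collagen gene Col1a2 gave -3.87 and 1.12, then 0.94 and -0.65, then -2.06 and -2.01 on the same arrays, while the proteoglycan gene Dcn gave 0.40 and 0.30 and the matrix gene Postn 0.72 and 0.45 in dcKO. All 11 were above background in at least 1 channel and 8 in every wild-type channel, and their summed log2 signal ranged from 12.86 to 14.51 in wild type and from 12.94 to 13.66 in the knockouts. Tubb5, Tubb6, Tuba1a, Stmn1, Dpysl3 and Mdk lay below 0 on both dcKO arrays, as 8 of the 11 dermal markers did and Dcn and Postn did not. On Sox4 cKO replicate 1, 9 of the 11 markers lay below 0, and on replicate 2, 10 lay above it. Tubb5, Tubb6, Stmn1 and Mdk lay below 0 on both Sox4 cKO arrays, at -0.52, -0.30, -0.79 and -0.63 on replicate 2. Tuba1a and Dpysl3 lay at 0.0027 and 0.021 on replicate 2. The part of the dermal genes in the results above was not tested.

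Muscle markers gave -1.87 and -0.03 in Sox4 cKO, 0.13 and 0.12 in Sox11 cKO, and -0.21 and -0.77 in dcKO as medians over 8 genes, none of which was above background in all wild-type channels. Their summed log2 signal ranged from 7.95 to 10.98 in wild type and from 8.03 to 8.64 in the knockouts. Proliferation genes, to which Tubb5 and Stmn1 are often tied, had medians of -0.15 in dcKO, beside -0.03 for Sox4 cKO and -0.13 for Sox11 cKO, over 14 genes, none of which passed. The medians of Merkel cell, melanocyte, Schwann cell and endothelium markers were -0.31, -0.06, -0.04 and -0.10 in dcKO, again with no gene past the threshold.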

How the data were processed

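Agilent 2-colour arrays (62976 spots) held epidermal RNA of 6 knockout and littermate pairs. Per the labels, the authors used Agilent Feature Extraction 11.0.1.1 and limma 3.5. The deposited scanner files give a median intensity and background per dye and spot, and a log10 ratio. The deposited value table holds the authors' log2 ratios, which matched the ratios computed here (r of at least 0.99995, slope near 1, knockout over wild type, column medians from -0.0060 to 0.0035). Here the intensities were corrected by normexp (offset 16) and loess (span 0.3) with limma 3.58.1 in R 4.3.3, following the methods of the study. Control and outlier spots (183 to 233 an array) were left out, and spots were averaged over each of 55681 probes. For the channel levels, the mean log2 intensities of the spots (A values) were then given the same distribution on every array (Aquantile).

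A limma model of the 6 arrays together was run with a term for each genotype and a term for dye. It was then tested on data simulated from the spread and dye terms of that fit. The methods removed the dye effect in a separate step. Dye and replicate number coincide, so the dye term is also the replicate block. Pair correlations of deviations between genotypes were 0.26, 0.31 and 0.33. A dye bias of the probes alone would give positive values, so they cannot show whether the replicate numbers pair the arrays. With 2 labelled biological replicates, 1 slide and 1 scan, no slide or scan block was possible, and the small number of arrays limits the precision. Intervals are 95%.

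The 10 genes were reported with every probe, led by the brightest. Up to 5 genes a list were named if they passed, with the 3 genes nearest to each of the 10 that passed. Dpysl2, Dpysl5, Ptn, Col1a2, Dcn, Postn, the tubulin chaperones, the epidermal keratins and the neuron markers named singly were chosen after their values were seen. Genes and lists were chosen with earlier results of these data known. Camsap2 had no named probe. Levels of different probes were not compared. The alternatives tried were the background correction, the normalization, the source of the ratios, a filter on dim probes, the probe rule, the block, the arrays in the fit and each array left out.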

Additional observations from a re-analysis of the deposited data

How the results depend on the processing

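The number of the 10 genes that passed in dcKO (2) changed with the processing: 6 passed with an offset of 50 (Tubb2a, Tubb5, Tubb6, Tuba1a, Stmn1 and Mdk) and 5 without background subtraction (the same without Mdk), while 0 passed on Feature Extraction's own ratios, which differ in both background correction and normalization and where 0 of all probes did. Over all probes, the counts that passed in dcKO were 462, 1376, 1098 and 0 in that order. Without the replicate block, 1 gene passed (Tubb2a, adjusted p = 0.0243, with 270 of all probes), as it did on the dcKO arrays alone. Leaving out 1 array at a time gave 0 to 1 genes, Tubb2a passing without any 1 of the Sox4 cKO or Sox11 cKO arrays and no gene passing without dcKO replicate 1 or 2, where the lone dcKO array was assumed to vary like the others. By adjusted p alone, 2 genes were called in dcKO. With an offset of 50, 2 genes also passed in Sox4 cKO (Tubb5 and Stmn1), 1 in dcKO against Sox4 cKO (Tubb2a) and 2 in dcKO against Sox11 cKO (Tubb5 and Tubb6), where over all probes 51, 277 and 322 passed against 3, 81 and 89. The replicate block changed no other call of the 10 genes. The alternatives counted next are not independent. Leaving out either Sox4 cKO array gives the same dcKO fit, as does leaving out either Sox11 cKO array. The deposited ratios nearly repeat the main ones, so the counts and ranges include repeated outcomes. Over 15 alternatives in dcKO, Tubb2a ranged from 0.94 to 0.99 and passed in 12, and Tubb5 ranged from -0.87 to -0.65 and passed in 6, while Tubb6, Tuba1a and Stmn1 passed in 2 each, Mdk in 1 and Dpysl3 in 0, all with 1 sign.

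Values near 0 changed sign. In Sox4 cKO, Tubb3 was 0.014 on Feature Extraction's ratios and 0.091 with median centring, and leaving out 1 array at a time gave -0.27 to 0.22 for Tubb3, -0.13 to 0.29 for Tuba1a and -0.42 to 0.039 for Dpysl3. In Sox11 cKO, Tuba1a was -0.048 on Feature Extraction's ratios and -0.10 with median centring, Dpysl3 was 0.16 as the mean of its probes, and leaving out 1 array at a time gave -0.061 to 0.075 for Tuba1a and -0.40 to 0.12 for Dpysl3. In dcKO, Tubb2b was -0.0012 with an offset of 50, -0.0052 on Feature Extraction's ratios and -0.051 with median centring, Tubb3 was 0.058 on Feature Extraction's ratios, and leaving out 1 array at a time gave -0.22 to 0.23 for Tubb2b and -0.18 to 0.092 for Tubb3. The cause of these changes was not tested. Low signal is a separate limit, which affects Mdk, Dpysl3 and Tubb3 most, and Dcx entirely.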

Other observations

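The wild-type samples themselves differed in Tubb2a, and some epidermal genes shared its low values among the Sox11 cKO littermates. Sdr9c7, the gene nearest to Tubb2a by its ratios, had wild-type log2 signals of 7.91 and 7.29 among the Sox4 cKO littermates, 6.83 and 6.31 among the Sox11 cKO littermates and 7.67 and 7.45 among the dcKO littermates, so that the 2 littermates of Sox11 cKO were lowest for both genes. The differentiation keratin Krt1 was also lowest there (15.45 and 14.41, against 15.51 to 15.86 in the other 4), and Krt10 was lowest in Sox11 cKO replicate 2 (15.23) with dcKO replicate 1 next (15.61). The basal keratins Krt14 and Krt5 varied less, from 14.00 to 14.32 and from 15.865 to 16.03. Within that smaller range Krt5 was also lowest in the 2 Sox11 cKO littermates (15.885 and 15.865). Krt14 was lowest in Sox11 cKO replicate 2 (14.00) but not in replicate 1 (14.31). These genes were looked at after the values of Tubb2a were seen. The labels give E16 for all samples.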
